A study of Mus musculus with 24 samples.

Results

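The genes described here carry the names of proteins of the cytosolic ribosome. They were taken from the raw count table by symbol (names built as Rpl, Rps or Rplp plus a number, and Rpsa, with pseudogene names left out) and by a count of at least 100 in at least 12 of the 24 libraries. Of 23411 rows in the table, 83 had such a symbol and 76 reached the minimum, with 31 genes named for the small (40S) subunit and 45 named for the large (60S) subunit, among them Rpl7l1, a nucleolar relative of Rpl7 that is no subunit of the mature ribosome. The libraries came from livers of α7HMZ mice and of WT mice, with 3 mice and 1 library per mouse in each of 8 groups. α7HMZ mice carry an exon swap at the Hnf4a locus on both alleles, so that the P1 promoter drives the P2 form of HNF4α in every cell that uses it, and WT mice carry the unmodified locus. Both genotypes were male, were 16 to 20 weeks old and shared a mixed background of 129/Sv and C57BL/6. Within each genotype, 1 group was killed at 10:30 after a fast of 12 h. The other 3 groups ate ad libitum until they were killed at 10:30, 13:30 or 20:30, of which only 20:30 lies in the dark phase.

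A ribosome holds 1 copy of nearly every one of these proteins, and cells make them in matched amounts together with the ribosomal RNAs. Their messenger RNAs are short, abundant and stable, and most begin with an unbroken stretch of C and T, the terminal oligopyrimidine (TOP) tract, through which the growth kinase complex mTORC1 and the protein LARP1 control their translation. In the liver of nocturnal rodents, ribosome production follows feeding, and the TOP tract lets the cell switch the use of these messages without changing their amount.

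Total counts per library ran between 8545959 and 28445590, so that each of the 76 genes was counted 229 times or more in every library. α7HMZ fed 10:30 replicate 1 stood apart from all other libraries, with 50.8% of its counts in the ribosomal RNA gene Rn45s, against 3.76% or less elsewhere. It and 3 more libraries (α7HMZ 20:30 replicates 1 and 3 and WT 20:30 replicate 2), which hold the most Rn45s or the most bile duct (Krt19) or pancreatic (Ctrb1) RNA, were left out in an alternative fit. On 1 flow cell ran the fed 10:30 livers of α7HMZ and WT mice and the livers of fasted WT mice, and all others shared another, so the fed genotype comparisons lie within a flow cell. For fasted mice the genotype and the flow cell cannot be told apart, nor can fasting and the flow cell in α7HMZ mice. Between 10:30 and the later fed times, time and flow cell cannot be told apart either. Levels are given as CPM, the count per library scaled to a common total with factors from the trimmed mean of M values (TMM). All 7 hepatocyte markers of the table were detected in every library, with Alb at 56937 to 124127 CPM. Of 4 erythroid markers, Hba-a2 and Hbb-b1 were listed at 0 in all libraries and Hba-a1 reached at most 0.05 CPM. Hnf4a itself had 574.8 to 1352 CPM, and its count cannot check the genotype, since it adds both forms. In bulk liver, fewer cells of a type and less RNA per cell cannot be told apart. The p-values judge a difference against the spread between mice within groups, estimated over all groups of a fit.

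The 7 rows below the count minimum fell into a pair of kinds. Rpl10l, Rpl39l and Rpl3l, paralogs known from testis or muscle, had 0 to 3 counts in any library. The others belong to the general ribosome. Rpl26 was listed at 0 in all 24 libraries, Rpl30 had 2 to 17 counts, Rps27 had 2 to 28 counts and Rpl34 had 13 to 61 counts. Since every cell uses these proteins, nothing about their expression can be read from these rows. Of the 75-base words in their annotated transcripts (75 bases is the read length), 98.5% of those of Rps27, 65.1% of those of Rpl30, 43.0% of those of Rpl26 and 41.4% of those of Rpl34 also occur in transcripts of other genes. Whether this sharing bears on their low counts was not tested. Members just inside the minimum were Rpl22l1, with at least 229 counts, Rpl7l1, with at least 566, and Rpl37, with at least 810.

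Many of the 76 genes share sequence with other genes as well. Their shared 75-base words made up a median of 50.8% of the transcript (range 0 to 92.5%), and 40 of 76 genes shared at least 50%. In the 7 rows below the minimum the median was 41.4%. The highest shares belonged to Rpl5 (92.5%), Rpl10 (91.9%) and Rps10 (90.1%). Values of such genes, among them Rpl36a (84.6%), Rpl3 (83.2%) and Rps13 (78.6%), are uncertain where the counting could split reads among copies. The kit does not mark strand, and 2 genes, Rpl35 and Rpl23a, had over 50% of their exons under another gene's exons (66.2% and 59.7%). The annotated transcripts were short, their median being 733 bases, against 2273 bases in the 9067 other genes whose mean count was 100 or more, and 60 of 76 were under 1000 bases. They were not unusually rich in G and C, with a median of 51.9% against 50.6% for the other genes. At least 1 small nucleolar RNA lay within 29 of the 76 genes. Per length, the highest mean counts per kb belonged to Rpl10, a late-joining protein of the large subunit (13102 per kb), Rpl41, the smallest of the proteins (12852 per kb), and Rps2, at the mRNA entry channel (11870 per kb). The lowest per-kb counts belonged to Rps20 (885.3 per kb), whose transcript is annotated at 3706 bases, Rpl7l1 (941.2 per kb) and Rpl22l1 (1081 per kb).

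For 57 of the 76 genes, RefSeq start sites on GRCm38.p6 gave a window of 30 bases around the annotated first base. A run of 8 or more C and T that reached within 3 bases of the first base stood in 35.1% of these 57 windows. It stood in 9.2% of the windows of 26962 other genes. For runs of 10 or more the shares were 28.1% and 4.9%. The other genes outnumber the 23411 rows of the count table, so they were not chosen by count, as the 57 genes were. The shares thus do not compare genes of like level. The windows shown belong to genes on which later results turn, and to Rpl7a for its run of 21, with the longest such run in capitals. Each window holds 15 bases before the first base and 15 from it on. Rplp2, Rpl14, Rps9 and Rps6 carry a TOP-like run, while Rps13 and Rpl36a, which were called at 10:30 as well, have runs of 2 and 3. Whether the annotated first base is the one used in these livers was not tested. A short run here thus does not show that a TOP tract is absent.
Rplp2, chr7:141447636-141447665, plus strand: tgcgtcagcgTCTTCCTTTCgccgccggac
Rpl14, chr9:120571502-120571531, plus strand: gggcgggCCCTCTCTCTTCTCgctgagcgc
Rps9, chr7:3704026-3704055, plus strand: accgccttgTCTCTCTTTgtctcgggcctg
Rps6, chr4:86857353-86857382, minus strand: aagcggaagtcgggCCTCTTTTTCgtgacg
Rpl13a, chr7:45128731-45128760, minus strand: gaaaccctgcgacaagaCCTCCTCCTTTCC
Rpl35a, chr16:33056467-33056496, plus strand: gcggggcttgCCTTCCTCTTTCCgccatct
Rps26, chr10:128626492-128626521, minus strand: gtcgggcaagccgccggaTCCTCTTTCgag
Rpl7a, chr2:26910792-26910821, plus strand: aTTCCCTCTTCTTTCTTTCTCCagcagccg
Rps13, chr7:116334176-116334205, minus strand: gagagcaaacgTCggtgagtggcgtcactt
Rpl36a, chrX:134585639-134585668, plus strand: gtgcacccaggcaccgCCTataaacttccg
The word TTCCGG is a core of sites bound by ETS family factors. It was sought on either strand of the promoter windows (250 bases before to 50 after the start), at the same starts picked by their run. It occurred in 49.1% of the 57 genes, against 15.1% of the same 26962 other genes, which were not chosen by count. TATAAA occurred in 12.3% against 14.1%. These are matches of letters and not bound sites.

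The level of the whole group in a library was summarized by the median of the 76 log2 CPM values. With TMM scaling, fed α7HMZ livers had 7.84 ± 0.30 at 10:30, 7.75 ± 0.10 at 13:30 and 7.72 ± 0.17 at 20:30 (log2 CPM, SD, n = 3 each). Fed WT livers had 7.50 ± 0.02 at 10:30, 7.59 ± 0.06 at 13:30 and 7.87 ± 0.20 at 20:30. The 3 α7HMZ libraries lay above the 3 WT libraries at 10:30 (7.59, 7.77 and 8.17 against 7.50, 7.53 and 7.49), overlapped them at 13:30, and overlapped them at 20:30 in the other direction. Fasted α7HMZ livers had 7.66 ± 0.13 and fasted WT livers 7.54 ± 0.28, and these also overlapped. As a share of all counts outside Rn45s, the 76 genes took 1.55 to 2.51% in fed α7HMZ libraries and 1.42 to 1.87% in fed WT libraries.

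**Figure D1:**
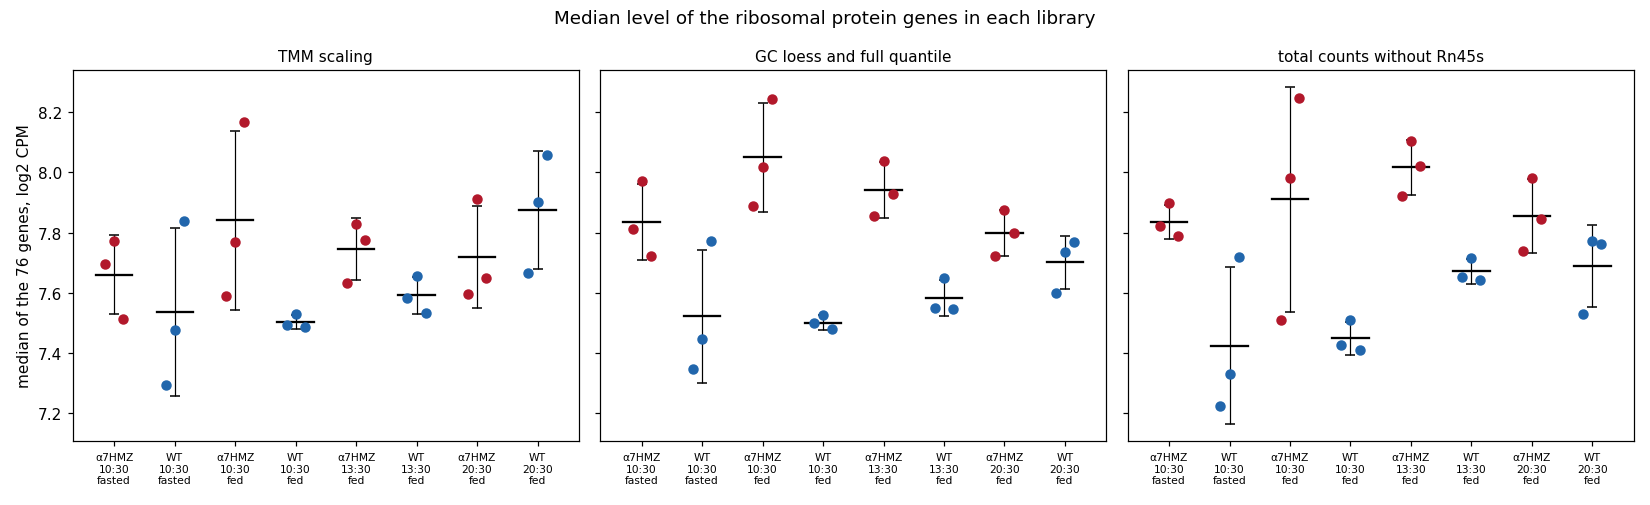
Median of the 76 ribosomal protein genes (log2 CPM) in each of the 24 libraries under 3 ways of scaling, with α7HMZ in red and WT in blue. Points are mice, bars are the mean and SD of 3 mice. With TMM scaling the 20:30 mean is lower in α7HMZ (7.72 against 7.87 in WT), while with GC loess and full quantile scaling it is higher in α7HMZ (7.80 against 7.70 in WT), as it is with plain totals without Rn45s (7.86 against 7.69 in WT).

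The first comparison asks how livers with the P2 form of HNF4α differ from WT livers in the morning. At 10:30 in fed mice, 32 of the 76 genes were higher in α7HMZ and 0 were lower at an adjusted p under 0.05 (edgeR quasi-likelihood test, Benjamini-Hochberg over 13334 genes), where 8.36% of all tested genes were higher and 8.98% lower. The fold change was above 0 for all 76 genes, with a median log2 fold change of 0.37 against 0.04 for all tested genes. Both subunits took part, with 17 of the 31 genes named for the small subunit (median 0.38) and 15 of the 45 named for the large subunit (median 0.35). The 3 α7HMZ values lay above the 3 WT values for 51 genes, against 16.1% of all tested genes.

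Among the proteins of the stalk, which recruits elongation factors to the large subunit, Rplp2 had the largest change of the 76 genes. Its levels were 116.1, 140.5 and 171.7 CPM in α7HMZ and 79.9, 85.5 and 67.2 CPM in WT. The groups were far apart, with the lowest α7HMZ liver well above the highest WT liver. The log2 fold change was 0.89 (edgeR SE 0.16, adjusted p = 8.37e-04). Its partner in the stalk, Rplp1, had a log2 fold change of 0.39 (edgeR adjusted p = 0.123), and the stalk base Rplp0 one of 0.28 (edgeR adjusted p = 0.149).

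On the small subunit, Rps9, which lines the mRNA entry channel, had 226.6, 263.8 and 342.3 CPM in α7HMZ and 177.5, 189.1 and 181.8 CPM in WT, a log2 fold change of 0.61 (edgeR SE 0.13, adjusted p = 0.00323). Rps6, the substrate of the S6 kinases downstream of mTORC1, had 375.2, 420.6 and 560.2 CPM in α7HMZ and 308.6, 313.9 and 312.6 CPM in WT. In both genes the WT livers were tightly grouped and the α7HMZ livers widely spread above them, with replicate 3 highest. The log2 fold change of Rps6 was 0.54 (edgeR SE 0.13, adjusted p = 0.00575). Rps27a, made as a fusion with ubiquitin, rose by 0.59 on the log2 scale (edgeR adjusted p = 0.0165), and Rps19, the gene most often mutated in human Diamond-Blackfan anemia, rose by 0.40 (edgeR adjusted p = 0.0499).

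On the large subunit, Rpl14 had 175.9, 195.2 and 243.1 CPM in α7HMZ and 122.6, 145.7 and 131.2 CPM in WT (log2 fold change 0.63, edgeR SE 0.14, adjusted p = 0.00488). Rpl36a, at the exit site for transfer RNA, had 104.9, 112.0 and 176.0 CPM in α7HMZ and 87.1, 85.6 and 85.3 CPM in WT (log2 fold change 0.61, edgeR SE 0.15, adjusted p = 0.0101). For Rpl36a the difference came mostly from α7HMZ replicate 3, and the other α7HMZ livers lay only slightly above WT. Rpl39, in the tunnel through which the new protein leaves, rose by 0.61 (edgeR adjusted p = 0.0266). Rpl5, which with Rpl11 carries the smallest rRNA and binds Mdm2, rose by 0.39 (edgeR adjusted p = 0.0487), and Rpl11 had 0.38 (edgeR adjusted p = 0.0876). Rpl10 and Rpsa, both abundant, had 0.20 and 0.26 with edgeR adjusted p of 0.322 and 0.202. The count of 32 depended on single mice. It was 6 without α7HMZ replicate 3 (median 0.17), the liver with the highest levels, and 49 without α7HMZ replicate 1 (median 0.46), the library with most Rn45s, and it was 11, 12 and 12 without WT replicates 1, 2 and 3. GC loess and full quantile scaling gave 68 members, where 10.6% of all tested genes were higher. Markers of cell types moved too. Of 7 hepatocyte markers, 2 were lower in α7HMZ at 10:30 (median of the 7 -0.32) and, averaged over the fed times, 4 of them. Their sum at 10:30 was 94207 to 111528 CPM in α7HMZ and 115671 to 143603 CPM in WT. Most of each sum was Alb, at 70304 to 87595 CPM in α7HMZ and 83722 to 110342 CPM in WT. The 7 include Hnf4a, the gene altered in these mice, so the list is not free of the genotype itself. Hnf4a ran the other way, with 808.1 to 1147 CPM in α7HMZ and 667.8 to 788.1 CPM in WT. Of 6 stellate cell markers 1 was lower at 10:30, and their sum was 64.9 to 101.2 CPM in α7HMZ and 106.0 to 138.9 CPM in WT. Of 5 bile duct markers, 1 was higher in α7HMZ at 10:30 and 2 at each later fed time, and their sum was 58.2 to 71.0 CPM in α7HMZ and 47.5 to 55.6 CPM in WT at 10:30. The erythroid gene Alas2 was lower in α7HMZ at each fed time, with 65.9 to 76.8 CPM in α7HMZ and 154.0 to 166.3 CPM in WT at 10:30. The part of these cells in the result was not tested.

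**Figure D2:**
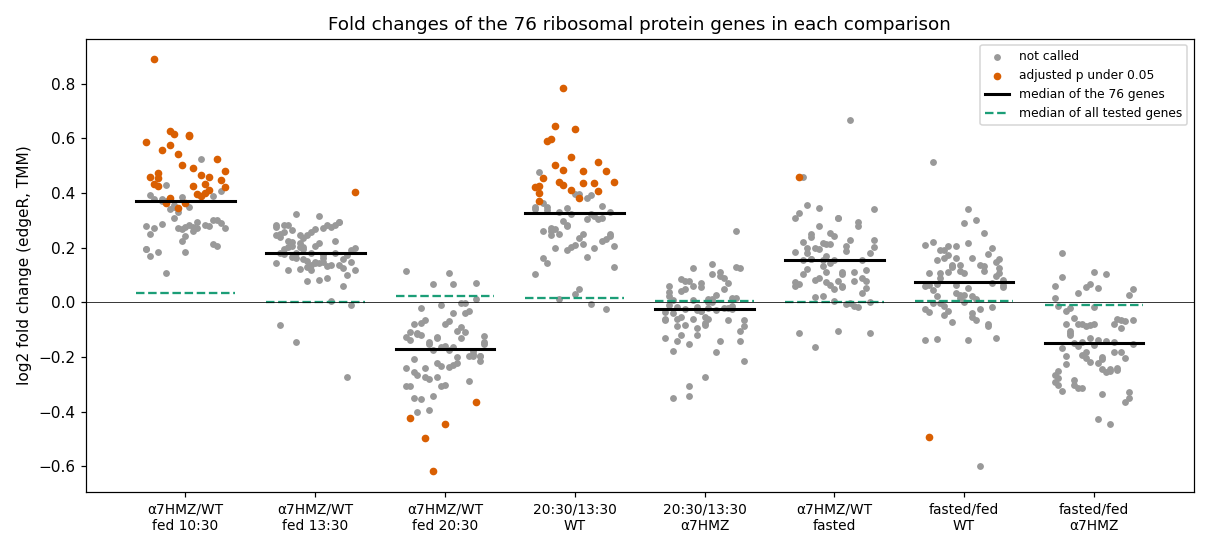
Log2 fold change (edgeR with TMM) of each of the 76 genes in 8 comparisons, named as numerator over denominator, with orange points past an adjusted p of 0.05. The black line is the median of the 76 genes and the dashed line that of all tested genes. In α7HMZ over WT at 10:30 all 76 points lie above 0 (median 0.37), and at 20:30 the median is -0.17, which turns to 0.11 under GC loess and full quantile scaling.

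At 13:30 in fed mice, 1 of the 76 genes passed the test, where 6.19% of all tested genes were higher in α7HMZ and 6.61% lower. That gene was Rps26, at the mRNA exit channel, with 123.7, 141.6 and 136.8 CPM in α7HMZ and 96.45, 108.1 and 99.7 CPM in WT. The 3 α7HMZ livers lay above the 3 WT livers, and the log2 fold change was 0.40 (edgeR SE 0.13, adjusted p = 0.0409). The call was lost when any 1 of the 6 libraries was left out. The fold change was above 0 in 72 genes, with a median of 0.18 against 0.003 for all tested genes, and the groups did not overlap, with α7HMZ higher, in 29 genes, against 17.5% of all tested genes. At an unadjusted p under 0.05 there were 5 members in this direction and 0 in the other, where 12.6% and 12.3% of all tested genes were higher and lower. The count of 1 became 45 under full quantile scaling, with or without the GC loess, where 7.12% and 6.60% of all tested genes were higher.

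At 20:30 in fed mice the direction of the group was the opposite with TMM scaling. Of the 76 genes, 5 were lower in α7HMZ and 0 were higher, where 10.8% of all tested genes were lower and 8.29% higher. The share of members lower was thus below that of all genes. The groups did not overlap, with α7HMZ lower, in 5 genes, against 16.5% of all tested genes. At an unadjusted p under 0.05, 15 members were lower and 0 higher, where 17.3% and 15.9% of all tested genes were. The median log2 fold change was -0.17, against 0.02 for all tested genes, and it was below 0 for 70 of the 76 genes. With GC loess and full quantile scaling 4 members were higher, where 7.87% of all tested genes were, 0 were lower, and the median was 0.11. Of the cell type markers, 2 of 7 for hepatocytes were higher and 1 lower in α7HMZ, 1 of 6 for stellate cells was higher and 1 of 3 tested for pancreatic acinar cells was lower. The pancreatic markers summed to 22.1 to 27.0 CPM in α7HMZ and 30.5 to 54.1 CPM in WT. Most of each sum was Cela1, at 16.40 to 21.37 CPM in α7HMZ and 28.64 to 39.99 CPM in WT. Ctrb1 overlapped, with 1.87, 0 and 3.32 CPM in α7HMZ and 0, 4.999 and 0.322 CPM in WT. The 3 tested markers had log2 fold changes of -0.83 to 0.37 (median 0.06). The sums thus do not show less pancreatic RNA in α7HMZ, and the part of these cells was not tested. Rps14, on the platform of the small subunit, had 159.1, 201.1 and 180.8 CPM in α7HMZ and 206.4, 271.2 and 352.5 CPM in WT. The groups did not overlap, though the gap was narrow, and the WT livers were spread widely. Its log2 fold change was -0.62 (edgeR SE 0.19, adjusted p = 0.0268). Rpl35a, another gene of Diamond-Blackfan anemia, had 120.5, 150.2 and 136.3 CPM in α7HMZ and 168.1, 197.2 and 207.6 CPM in WT (log2 fold change -0.49, edgeR SE 0.14, adjusted p = 0.0185). Rpl27 fell by 0.37 (edgeR adjusted p = 0.0476) and Rps27l, a paralog of Rps27 induced by p53, by 0.42 (edgeR adjusted p = 0.0229). The count of 5 became 0 without WT replicate 3, 0 without α7HMZ replicate 1, 1 without α7HMZ replicate 3, 2 without WT replicate 2, 14 without WT replicate 1, and 0 without the 4 libraries named above, where the median was -0.04.

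Averaged over the 3 fed times, 13 of the 76 genes were higher in α7HMZ and 0 were lower, where 13.3% of all tested genes were higher and 13.2% lower. The median log2 fold change was 0.12, against 0.03 for all tested genes. The members' share was thus near that of all genes. The count depended on the scaling, since upper quartile factors gave 23 members higher, where 17.0% of all tested genes were, GC loess and full quantile scaling gave 69, where 15.7% were, and full quantile scaling alone gave 68, where 15.1% were. Rps9 led with 0.31 (edgeR SE 0.07, adjusted p = 0.00416), followed by Rpl36a with 0.30 (edgeR SE 0.09, adjusted p = 0.0152) and Rplp2 with 0.30 (edgeR SE 0.09, adjusted p = 0.022). At 20:30 alone, Rps9 had 264.7, 298.3 and 256.2 CPM in α7HMZ and 228.2, 239.2 and 293.3 CPM in WT, so in the evening the groups overlapped. The count of 13 was 3 without α7HMZ 13:30 replicate 2, 6 without α7HMZ 10:30 replicate 3, 23 without α7HMZ 10:30 replicate 1, 6 without WT 20:30 replicate 1, 5 without WT 13:30 replicate 3 or α7HMZ 20:30 replicate 2, 6 without WT 10:30 replicate 3, 7 without α7HMZ 13:30 replicate 1, 8 without WT 10:30 replicate 1 or α7HMZ 13:30 replicate 3, and between 9 and 18 without any other 1 library. Without α7HMZ 10:30 replicate 3, 2 members were also lower.

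The next comparison asks how the genes differ between the dark phase and midday within a genotype, and all 4 groups of it were run on the same flow cell. In WT livers, 24 of the 76 genes were higher at 20:30 than at 13:30 and 0 were lower, where 11.6% of all tested genes were higher and 9.97% lower. The median log2 fold change was 0.33, against 0.02 for all tested genes, and 74 genes had a positive value. In 44 genes the 20:30 livers lay above all 13:30 livers, against 19.6% of all tested genes. Rps14 led, with 206.4, 271.2 and 352.5 CPM at 20:30 and 164.5, 170.1 and 150.1 CPM at 13:30 (log2 fold change 0.78, edgeR SE 0.19, adjusted p = 0.00698). Rpl13a, which in human cells also silences inflammatory messages, had 321.5, 413.5 and 518.6 CPM at 20:30 and 258.4, 291.2 and 257.1 CPM at 13:30 (log2 fold change 0.65, edgeR SE 0.18, adjusted p = 0.015). In both genes WT 20:30 replicate 3 was the highest liver, and every evening liver lay above every midday liver.

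Rpsa, the laminin receptor precursor of the small subunit, rose by 0.48 (edgeR adjusted p = 0.0186), Rplp0 by 0.42 (edgeR adjusted p = 0.0266), Rpl3 by 0.43 (edgeR adjusted p = 0.0215) and Rpl10a by 0.37 (edgeR adjusted p = 0.0351). Values short of the threshold were 0.34 for Rps6 (edgeR adjusted p = 0.0559), 0.38 for Rpl41 (edgeR adjusted p = 0.0582) and 0.35 for Rpl10 (edgeR adjusted p = 0.0603). The count of 24 was 1 without WT 20:30 replicate 3 (median 0.22), 37 without WT 20:30 replicate 1, 13 without WT 20:30 replicate 2, and 8 and 6 without WT 13:30 replicates 1 and 3. It was 12 after a loess on transcript length (median 0.21). Under GC loess and full quantile scaling it was 10, with 1 gene lower (median 0.12). There 10.3% of all tested genes were higher and 9.54% lower, so the share of members higher was near that of all genes. Cell type markers moved between these times as well. Of 5 bile duct markers 2 were higher at 20:30, by up to 2.75 on the log2 scale, and their sum was 41.4 to 69.3 CPM at 20:30 and 36.3 to 41.1 CPM at 13:30. Of 3 tested pancreatic acinar markers 1 was higher (7.67), with sums of 30.5 to 54.1 CPM at 20:30 and 35.2 to 49.3 CPM at 13:30. Cela1 made up most of each sum here as well. Of 7 hepatocyte markers 2 were higher, with sums of 120217 to 149126 CPM at 20:30 and 87143 to 104629 CPM at 13:30. Of 7 sinusoidal endothelial markers 1 was higher and 2 were lower, and of 6 stellate cell markers 1 was lower. The part of these cells in the result was not tested.

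In α7HMZ livers 0 of the 76 genes passed the edgeR test between 20:30 and 13:30 in either direction, where 3.16% of all tested genes were higher at 20:30 and 2.05% lower. At an unadjusted p under 0.05, 0 members were higher and 3 were lower, where 10.5% and 8.85% of all tested genes were, and DESeq2 also called 0. The median log2 fold change was -0.02, and it was 0.11 without the 4 libraries. Rps14 had 159.1, 201.1 and 180.8 CPM at 20:30 and 165.3, 193.2 and 181.6 CPM at 13:30, Rpl13a had 331.1, 404.0 and 302.9 CPM at 20:30 and 309.3, 357.5 and 341.2 CPM at 13:30, and in both genes the times overlapped fully.

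Whether the change from 13:30 to 20:30 differed between genotypes was tested itself, a test added after the data were seen. Its estimate was below 0, for a smaller evening rise in α7HMZ, in 75 of 76 genes, with a median of -0.35, but 0 genes passed the adjusted edgeR threshold in either direction, where 0.112% of all tested genes passed in each. Without adjustment, 28 members had a negative estimate with a p under 0.05 and 0 a positive one, where 7.74% and 7.69% of all tested genes had these. For Rps14 the difference of differences was -0.78 (edgeR SE 0.26, adjusted p = 0.184). The 1 gene with a positive value was Rpl7l1 (0.28, edgeR adjusted p = 0.506). Between 10:30 and 13:30 the same kind of test called 0 members in either direction by edgeR, where 1.15% and 1.09% of all tested genes were called higher and lower. At an unadjusted p under 0.05, 0 members were higher and 6 lower, where 9.28% and 9.85% of all tested genes were.

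The joint edgeR test of whether the genotype difference changed over the 3 fed times called 2 of the 76 genes, Rplp2 (adjusted p = 0.0262) and Rps13 (adjusted p = 0.0299), where 4.99% of all tested genes were called. With an unadjusted p under 0.05 there were 55 of 76, where 26.6% of all tested genes had one. DESeq2 called 20 members, where it called 12.1% of all tested genes. Since the 10:30 libraries ran on another flow cell, neither test can tell a change with time from a change with flow cell. Rps13, near the subunit interface, had 132.8, 141.2 and 181.3 CPM in α7HMZ and 94.5, 112.7 and 100.2 CPM in WT at 10:30. At 13:30 it had 115.9, 131.2 and 135.1 CPM in α7HMZ and 116.2, 121.5 and 113.7 CPM in WT, and at 20:30 it had 106.0, 115.0 and 120.8 CPM in α7HMZ and 117.1, 147.8 and 150.6 CPM in WT. The α7HMZ livers were thus the higher ones in the morning, mixed with WT at midday and mostly below WT in the evening. Rplp2 had 131.1, 161.0 and 149.3 CPM in α7HMZ and 103.9, 135.6 and 130.1 CPM in WT at 13:30, and 122.2, 119.3 and 102.7 CPM in α7HMZ and 119.7, 118.0 and 172.8 CPM in WT at 20:30. The count of 2 was 0 without any 1 of the 3 WT 10:30 libraries, 31 without α7HMZ 10:30 replicate 1, 14 without WT 20:30 replicate 1, 4 without α7HMZ 20:30 replicate 2, 1 without α7HMZ 10:30 replicate 2 or WT 20:30 replicate 3, and 1 without the 4 libraries.

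**Figure D3:**
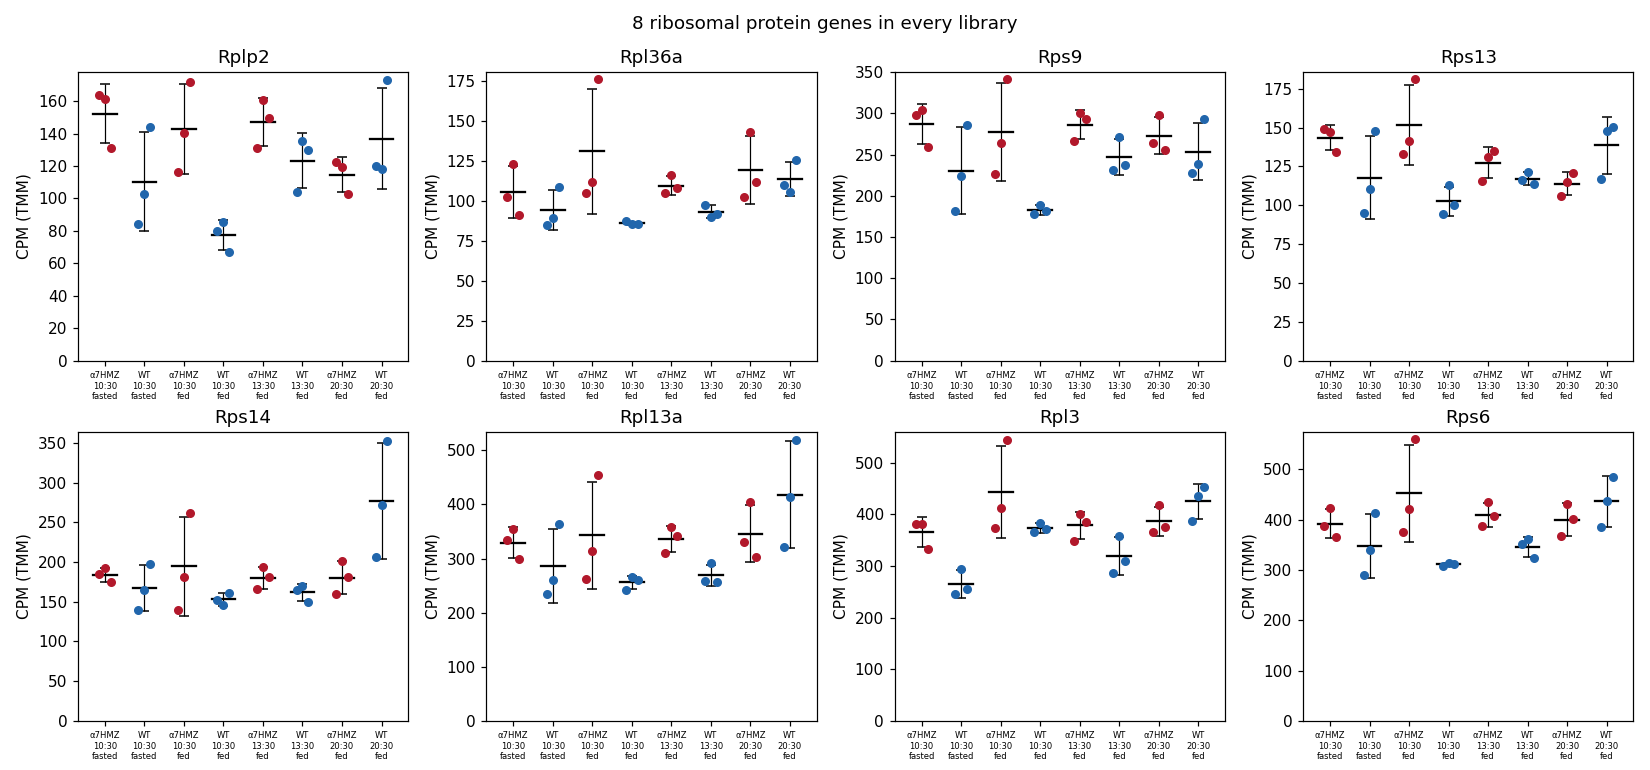
Levels (CPM, TMM scaling) of 8 ribosomal protein genes in all 24 libraries, with α7HMZ in red and WT in blue. Points are mice, bars the mean and SD of 3. The mean of Rps14 and that of Rpl13a are highest in WT at 20:30, Rplp2 is lowest in WT at 10:30 fed (67.2 to 85.5 CPM), and Rpl3 is lowest in fasted WT livers (245.0 to 295.0 CPM).

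Fasting asks how a night without food changes the genes. In WT livers, all on 1 flow cell, 1 of the 76 genes fell after 12 h of fasting and 0 rose, where 10.6% of all genes tested at 10:30 were lower and 12.0% higher. The gene was Rpl3, close to the peptidyl transferase center, with 245.0, 295.0 and 255.6 CPM in fasted WT livers and 366.0, 384.3 and 372.3 CPM in fed WT livers. The groups were well apart, and the log2 fold change was -0.49 (edgeR SE 0.14, adjusted p = 0.0216). The call was lost without any 1 of the libraries except fasted replicate 2. Rpl22l1, the relative of Rpl22 with the widest spread of the group, had 12.9, 21.9 and 26.2 CPM in fasted WT livers and 29.3, 32.0 and 31.3 CPM in fed WT livers, with an edgeR adjusted p of 0.212. The median over the 76 genes was 0.08, and it was -0.10 without fasted WT replicate 3, whose group level was 7.84 log2 CPM against 7.29 and 7.48 in the other fasted WT livers. Without fasted WT replicate 1, 1 member was higher. Of 7 sinusoidal endothelial markers 5 were lower in fasted WT livers (median of the 7 -0.92), with sums of 150.3 to 246.6 CPM in fasted and 317.8 to 363.9 CPM in fed WT livers. Both tested neutrophil markers were higher (median 3.27), with sums of 1.78 to 3.93 CPM in fasted and 0.16 to 0.31 CPM in fed WT livers. Of 6 stellate cell markers 2 were lower, with sums of 62.2 to 82.8 CPM in fasted and 106.0 to 138.9 CPM in fed WT livers. Lists with other calls were bile duct (2 of 5 higher), lymphocyte (2 of 6 higher), and Kupffer (1 of 9), hepatocyte (1 of 7), pancreatic (1 of 2) and erythroid (1 of 1) markers, all lower. The part of these cells was not tested.

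Between fasted mice, Rpl3 was also the 1 gene higher in α7HMZ, with 0 lower, where 6.90% of all tested genes were higher and 8.65% lower. It had 382.2, 382.4 and 332.5 CPM in fasted α7HMZ livers against the 3 fasted WT values above (log2 fold change 0.46, edgeR SE 0.14, adjusted p = 0.0404), with no overlap, and both comparisons of Rpl3 share the fasted WT livers. The median of the 76 genes was 0.15. The count was 10 without fasted WT replicate 3, and 0 without any other 1 library. It was 21 under GC loess and full quantile scaling, where 7.68% of all tested genes were higher, and 18 under full quantile scaling alone, where 7.20% were. The fed and fasted α7HMZ livers were run on different flow cells, so fasting and flow cell cannot be told apart there. In α7HMZ livers 0 genes passed the edgeR test for fasting in either direction, where 6.68% of all tested genes were higher and 5.90% lower, and 0 passed by DESeq2. At an unadjusted p under 0.05, 0 members were higher and 2 lower, where 13.5% and 13.4% of all tested genes were. The median of -0.15 was -0.27 without fed α7HMZ replicate 1, with 2 genes then lower, and 0.02 without fed α7HMZ replicate 3. The test of whether fasting acted differently in the genotypes was also added later and shares the flow cell limit. It called 0 members, where 0.160% and 0.0916% of all tested genes were called higher and lower. At an unadjusted p under 0.05 there were also 0 members, where 8.06% and 6.81% of all tested genes were higher and lower. Between the fasted genotypes, 5 of 9 Kupffer cell markers and 2 of 7 sinusoidal endothelial markers were higher in α7HMZ. Of 5 bile duct markers 1 was higher and 3 were lower. Of 7 hepatocyte markers 1 was higher and 2 were lower, and the 1 tested erythroid marker was lower. In fasted α7HMZ replicate 3, Kupffer cell markers summed to 953.2 CPM, against at most 222.5 CPM in the other fasted α7HMZ libraries. This library had the lowest median of the 76 genes in its group (7.51 against 7.70 and 7.77), and the part of those cells was not tested.

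Scaling changed the size of the group's difference. Relative log expression, upper quartile and TMM factors gave like medians, with the widest spread at 13:30 (0.17, 0.25 and 0.18), and TMM factors computed without the 76 genes and Rn45s gave 31 members higher at 10:30 in place of 32. A loess on GC content within each library, followed by TMM, left the counts close to those of TMM alone, with 35 members higher at 10:30 and 22 higher at 20:30 in WT. Full quantile scaling without any GC step gave 64 members higher in α7HMZ at 10:30, 45 at 13:30 and 68 on average, where 9.80%, 6.60% and 15.1% of all tested genes were higher. With the GC step the members' counts were 68, 45 and 69, where 10.6%, 7.12% and 15.7% of all tested genes were. The move was thus made by the full quantile step, which gives every library the same distribution of counts, and not by the GC step. Under that step the genotype medians were 0.51 at 10:30, 0.37 at 13:30 and 0.11 at 20:30 without the GC step. The WT evening difference then had a median of 0.13. In it 8 members were higher and 1 lower, where 9.78% and 9.18% of all tested genes were. The TMM factors themselves differed by genotype, at 1.05 to 1.22 in the fed α7HMZ libraries other than 10:30 replicate 1 and 0.81 to 1.08 in fed WT libraries.

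**Figure D4:**
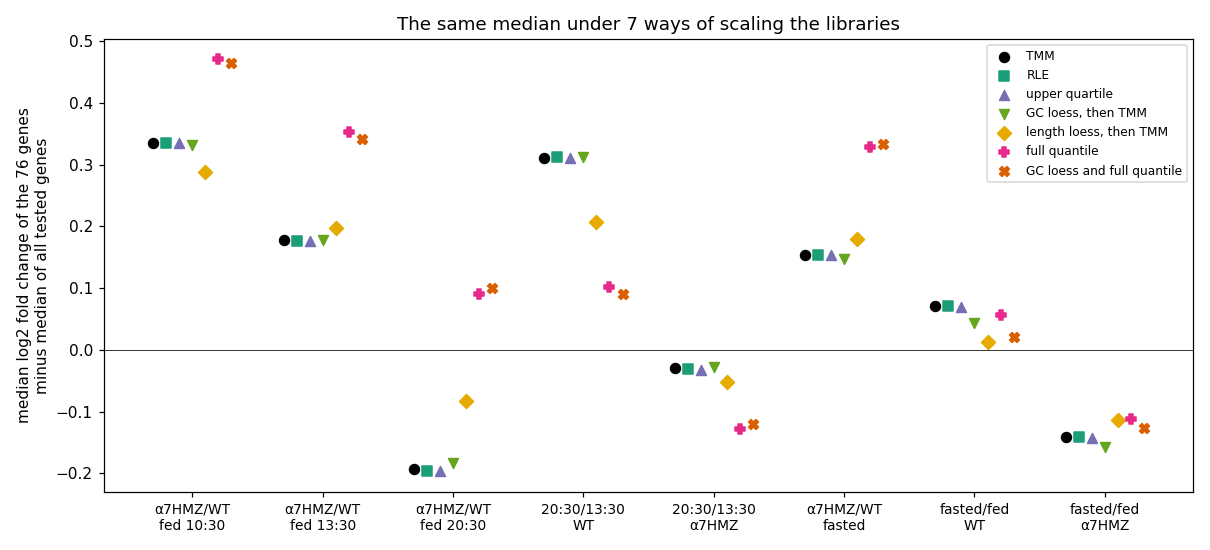
Median log2 fold change of the 76 genes minus that of all tested genes in 8 comparisons (horizontal axis), under 7 ways of scaling the libraries. The TMM, relative log expression, upper quartile and GC loess points lie close together, while both full quantile settings raise the 3 fed genotype comparisons, turn the one at 20:30 from negative to positive, and lower the WT evening difference.

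Other genes of translation, from lists of known members, moved with the group in part. Of all tested genes, 8.36%, 6.19% and 8.29% were higher in α7HMZ at 10:30, 13:30 and 20:30, and 8.98%, 6.61% and 10.8% lower. Of 16 tested translation factors and other TOP messages, 6 were higher in α7HMZ at 10:30 and 0 lower, among them Eef1g (0.58, edgeR adjusted p = 0.00213) and Eef1b2 (0.51, edgeR adjusted p = 0.0165), subunits of the factor that recharges elongation factor EF1A, and Eif3f (0.71, edgeR adjusted p = 0.00323). The nucleosome assembly gene Nap1l1 rose at each fed time, by 0.78, 0.68 and 0.59 at 10:30, 13:30 and 20:30. Of 30 ribosome biogenesis factors, 4 were higher at 10:30 and 0 lower, with Gar1, a core protein of the small nucleolar particles that modify rRNA, at 1.54 (edgeR adjusted p = 3.4e-04) and Bysl at 0.87 (edgeR adjusted p = 0.00214), and at 13:30 and 20:30 the counts were 0 in both directions by edgeR. Of 19 genes of mTORC1 and translation control, 0 were higher and 2 lower at 10:30, Sesn1 (-0.82, edgeR adjusted p = 0.00413) and Tsc1 (-0.41, edgeR adjusted p = 0.0216), both inhibitors of the pathway. At 20:30, 0 of the 19 were higher and 2 lower, among them Eif4ebp1, the translation repressor that mTORC1 inactivates (-0.80, edgeR adjusted p = 7.3e-05). The shares lower at 10:30 and 20:30 were near those of all genes. In the fed average, 2 of the 19 were higher and 3 lower, where 13.3% and 13.2% of all tested genes were. Ribosomal proteins under other names, Fau and Rpl36al, fell by 0.44 each at 20:30 (edgeR adjusted p = 0.032 and 0.0309).

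Genes outside the ribosome moved with the group too, and these values stand beside every time comparison above. In WT livers at 20:30 against 13:30, 38 of 70 nuclear genes of the respiratory chain were higher and 0 lower (median 0.41), as were 23 of 75 mitochondrial ribosomal proteins (median 0.25) and 145 of 600 other genes with transcripts under 1 kb (median 0.31), where 8 of the short transcripts were lower. At 20:30 in α7HMZ against WT, 20 of 70 respiratory chain genes, 25 of 75 mitochondrial ribosomal proteins and 132 of 600 short transcripts were lower, against 1, 0 and 14 higher, with medians of -0.34, -0.30 and -0.26, all below the -0.17 of the cytosolic ribosomal proteins. At 10:30 the medians of these lists were 0.19, 0.23 and 0.17, and at 13:30 they were -0.02, -0.01 and -0.01, below the 0.37 and 0.18 of the cytosolic ribosomal proteins. Over the 24 libraries, the median of the 76 genes followed that of the respiratory chain genes (Pearson r = 0.81, Spearman rho = 0.72) and that of the short transcripts (r = 0.77, rho = 0.74), as a description over libraries that share scaling and groups. Within the flow cells, r was 0.85 and 0.82 for the respiratory chain (9 and 15 libraries) and 0.93 and 0.67 for short transcripts, and without the 2 libraries farthest from the median it was 0.69 and 0.70. The part of transcript length or of RNA quality in these relations was not tested beyond the length loess above.

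**Figure D5:**
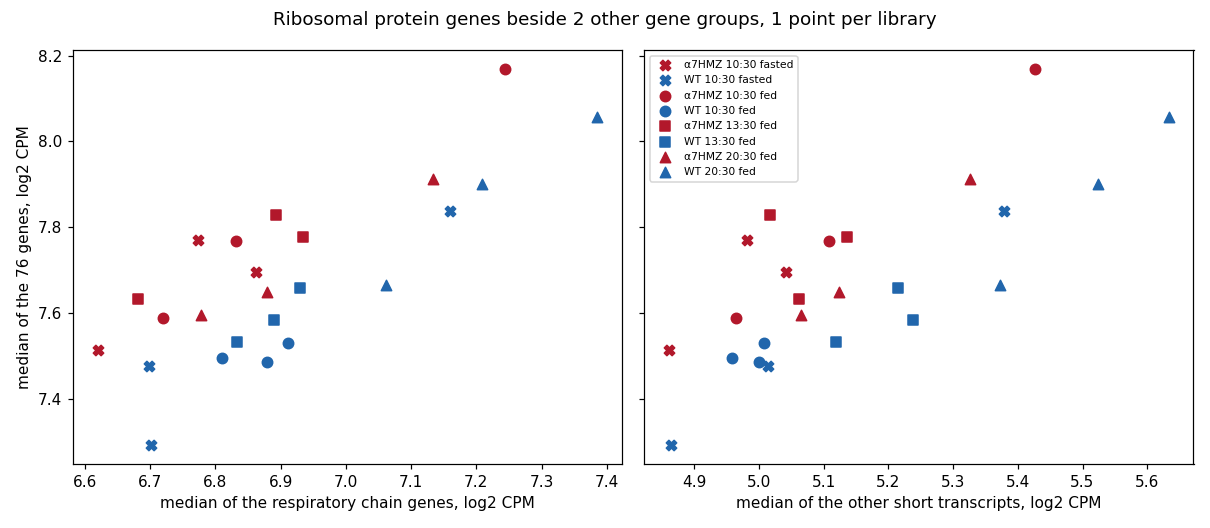
Median log2 CPM of the 76 genes (vertical) against the median of the respiratory chain genes (left) and of other transcripts under 1 kb (right), 1 point per library, with α7HMZ in red and WT in blue. At 10:30 fed, the vertical value exceeds the horizontal one on the left by 0.91 ± 0.04 in α7HMZ and 0.64 ± 0.04 in WT (mean and SD of 3).

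Set against short transcripts or respiratory chain genes within a library, the median of the 76 genes was higher in α7HMZ at every time. Any scaling factor of the library cancels in this difference. The median of the 76 genes exceeded that of the other short transcripts by 2.68 ± 0.06, 2.67 ± 0.12 and 2.55 ± 0.03 log2 units in fed α7HMZ livers at 10:30, 13:30 and 20:30, against 2.52 ± 0.03, 2.40 ± 0.05 and 2.37 ± 0.07 in fed WT livers (SD, n = 3 each). In fasted livers, where the flow cells differ, it was 2.70 ± 0.08 in α7HMZ against 2.45 ± 0.02 in WT. In each of the 4 conditions the 3 α7HMZ livers lay above the 3 WT livers, also at 20:30 (2.53 to 2.58 against 2.29 to 2.42). Against the respiratory chain genes the differences were 0.91 ± 0.04, 0.91 ± 0.06 and 0.79 ± 0.03 in fed α7HMZ and 0.64 ± 0.04, 0.71 ± 0.02 and 0.66 ± 0.05 in fed WT, again without overlap. This measure was chosen after the levels were seen and carries no test, and it shows unequal change between the lists, not which of them changed. Taken gene by gene against the short transcripts, 49 members were higher in α7HMZ without overlap at 10:30, 68 at 13:30, 40 at 20:30 and 63 in fasted mice, where 6.11%, 28.0%, 39.0% and 19.0% of all tested genes were. In the other direction there were 0, 0, 1 and 0 members, where 24.3%, 9.17%, 4.51% and 8.63% of all tested genes were lower. In all 4 conditions together, 25 of the 76 members were higher without overlap, against 1.99% of all tested genes, and 0 were lower, against 1.96%. They included Rps6, Rps9, Rps27a, Rpl3, Rpl10a and Rpl36a.

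Within the group the genes kept close step. Across the 24 libraries, the Pearson correlation of a member with the median of the other members had a median of 0.888 (range 0.485 to 0.973), against 0.034 for 8090 other genes of at least moderate level. The loosest members were Rpl7l1 (0.485), Rpl29 (0.634), Rpl36 (0.698), Rpl3 (0.705) and Rplp2 (0.705). After the median of the library was taken out, Rpl22l1 varied most (SD 0.32 log2 units, lowest in fasted WT replicate 1 and highest in fed α7HMZ 10:30 replicate 3), followed by Rplp2 (SD 0.26, lowest in fed WT 10:30 replicate 3). Rps14 was 0.58 above its usual place in WT 20:30 replicate 3. Outside the group, the genes most like it were Gnb2l1 (Pearson r = 0.933 over 24 libraries), which encodes the scaffold RACK1 on the small subunit, Ssr4 (0.901), Ndufb6 (0.896) and Eef1b2 (0.892), then Ndufb11, Ndufb2, Ybx1, Hsbp1 and Mrpl14 (0.876 to 0.887). Among the 76 genes, fold changes at 10:30 and in the WT evening followed neither GC content (Pearson r across genes -0.09 and 0.01) nor transcript length (-0.11 and 0.08), and genes are not independent replicates. In fasting of α7HMZ mice, whose groups lie on different flow cells, the fold change rose with GC content across the 76 genes (r = 0.56), and it ran the other way in the α7HMZ evening comparison (r = -0.46). The 20 genes with a run of 8 or more pyrimidines at the annotated start had a median log2 fold change of 0.44 at 10:30. The 37 with a shorter run had 0.36.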

How the data were processed

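Livers of 24 male mice, 1 poly(A) library each, were sequenced as 75-base single-end reads. Per the methods, the authors aligned reads to mm10 with TopHat2 2.1.1, keeping 1 alignment per read, and counted them per gene with HTSeq 0.6.1. The deposited table holds these raw counts, with no normalization. The deposited FPKM files were not used here. Groups came from the sample labels.

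The fed libraries (18 libraries, 13334 genes) and those of 10:30 (12 libraries, 13103 genes) were each fitted over all genes with edgeR 4.0.16 in R 4.3.3 (filterByExpr, TMM factors, quasi-likelihood test), with Benjamini-Hochberg adjustment over all genes tested and a threshold of 0.05. All 76 members passed the filter. Functions were tested on simulated data. Fits were repeated with factors from relative log expression or the upper quartile, TMM without the members and Rn45s, offsets after the study's description of GC loess and full quantile scaling (EDASeq itself was not run), DESeq2 1.42.0, no filter, a fit of all 24 libraries, the replicate number as a block, and leaving out libraries. GC loess alone, full quantile alone, a loess on transcript length, the interaction tests and the comparison with short transcripts within a library were added after seeing the data. Gene models came from GENCODE vM21, which paired 21777 symbols directly and 1277 by an older symbol, and start windows from RefSeq (GRCm38.p6). Members named in the text are in each comparison and direction, at most 3 called genes ranked by size of change, the 3 highest and lowest per kb, a fixed set of known proteins, the 5 least like the group and the other genes most like it. Some items that this rule names are not reported here. Other called members were named after their values were seen. The members and lists were chosen with earlier results of these data known. Libraries of a group differed beyond sampling noise (chi-square per degree of freedom of at least 11.7 within any pair). Precision is limited by 3 mice per group, more than by counting.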

Additional observations from a re-analysis of the deposited data

Results flagged for a closer look

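The genotype difference changed with the time of day in 2 members by edgeR's joint test over the 3 fed times, Rplp2 (adjusted p = 0.0262) and Rps13 (adjusted p = 0.0299). These are 2 of 76 members, a lower share than the 4.99% of all tested genes. At 10:30, 13:30 and 20:30 the log2 fold change of α7HMZ over WT was 0.89, 0.26 and -0.25 for Rplp2 and 0.57, 0.12 and -0.28 for Rps13. The lowest group of both genes was WT at 10:30, and both calls were lost without any 1 of its libraries. The fed 10:30 libraries ran on another flow cell than the later fed ones. A change with time thus cannot be told from a change with flow cell here.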

How the results depend on the processing

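Of 19 counts of members, none moved by over 1.5 times under relative log expression factors, TMM without the members and Rn45s, or the replicate block. Replicate numbers are shared across groups but do not pair the samples: of 84 same-numbered pairs, 16 deviated together with a correlation over 0.1 (range -0.365 to 0.365), and with the replicate block members higher were 14 in the fed average, 33 at 10:30, 1 at 13:30 and 30 in WT at 20:30 against 13:30, 5 were lower at 20:30, and genotype by time called 3. Upper quartile factors gave 23 members higher in the fed average and 3 lower at 20:30. GC loess and full quantile gave 69 higher in the fed average, 68 at 10:30, 45 at 13:30, 4 higher and 0 lower at 20:30, 10 higher and 1 lower in WT at 20:30 against 13:30, 1 lower in α7HMZ at 20:30 against 13:30, 21 higher in fasted α7HMZ and 1 lower with fasting in α7HMZ. Full quantile alone gave 68 higher in the fed average, 64 at 10:30, 45 at 13:30, 5 higher and 0 lower at 20:30, 8 higher and 1 lower in WT at 20:30 against 13:30, 2 lower in α7HMZ at 20:30 against 13:30, 18 higher in fasted α7HMZ and 1 higher with fasting in WT. GC loess alone gave 3 lower at 20:30. The length loess gave 24 higher in the fed average, 3 lower at 20:30, 12 higher in WT at 20:30 and 4 higher in fasted α7HMZ. Without a filter, 0 were higher at 13:30 and 3 lower at 20:30. With all 24 libraries fitted together, 0 were higher at 13:30, 2 lower at 20:30 and 1 higher with fasting in WT. DESeq2 gave 1 higher with fasting in WT, 2 higher in fasted α7HMZ and 20 with genotype by time. Without the 4 libraries there were 26 higher in the fed average, 0 lower at 20:30, 2 lower with fasting in α7HMZ and 1 with genotype by time. The causes were not tested.

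Leaving out 1 replicate at a time, members higher ranged from 3 to 23 in the fed average, 6 to 49 at 10:30, 0 to 0 at 13:30, 1 to 37 in WT at 20:30 against 13:30, 0 to 1 with fasting in WT and 0 to 10 in fasted α7HMZ. Members lower ranged from 0 to 2 in the fed average, 0 to 14 at 20:30, 0 to 1 with fasting in WT and 0 to 2 with fasting in α7HMZ, and genotype by time from 0 to 31. Among checks of single named genes, 253 kept their call and 53 lost it, with 0 reversed. With 3 mice per group, differences within the spread of a group were not detectable, and sequence shared with other genes limits single members.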
